A study of Mus musculus with 12 samples.

Results

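Transcripts of 8 iron handling genes were followed in the mouse hippocampus: Tfrc, Trf and Slc11a2 for uptake, Fth1 and Ftl1 for storage, Slc40a1 for export, and Aco1 and Ireb2 for sensing. They are 8 of the 23352 gene entries in the deposited table, taken by gene symbol, and all 8 passed the filter of at least 1 FPKM (fragments per kilobase of transcript per M mapped fragments) in at least 3 of the 12 libraries. The set was chosen by the FPKM values of Tfrc, because the difference between N40K and wild-type mice in Tfrc was not the same at both ages, so the Tfrc values below are a description and carry no test. The 12 libraries formed 4 groups of 3: N40K transgenic mice at 12 months, wild-type mice at 12 months, N40K transgenic mice at 3 months and wild-type mice at 3 months, all C57BL/6J. N40K is a truncated U1-70K, the splicing protein encoded by Snrnp70, and the transgenic mice came from 1 line, Tg396, in which a modified CaMKIIa promoter drives it in neurons. The wild-type mice were littermates without the transgene. Both genotypes were measured in whole hippocampus, so other cells than the neurons that make N40K contribute to every value.

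Cells take up iron as transferrin, the Trf product, which binds the transferrin receptor encoded by Tfrc. Iron leaves the endosome through the transporter DMT1, the Slc11a2 product, is stored in ferritin shells built from the Fth1 and Ftl1 products, and leaves the cell through ferroportin, the Slc40a1 product. Iron regulatory proteins 1 and 2, encoded by Aco1 and Ireb2, bind hairpins called iron-responsive elements when iron is scarce. Binding in the 3′ untranslated region protects Tfrc mRNA from decay, and binding in the 5′ untranslated region blocks translation of ferritin and ferroportin mRNA. FPKM values record mRNA level and not translation or protein.

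The hairpins that set Tfrc apart from the storage and export genes are shown because they lie at opposite ends of the mRNAs. They were read from GENCODE M21 mouse transcripts on the sense strand, 5′ to 3′, with the bulged C and the loop in capitals, and are given in DNA letters.
Fth1, 5′ untranslated region: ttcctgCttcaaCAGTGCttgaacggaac
Ftl1, 5′ untranslated region: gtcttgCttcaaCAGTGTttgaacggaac
Slc40a1, 5′ untranslated region: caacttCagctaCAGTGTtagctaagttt
Tfrc, 3′ untranslated region, start at base 889: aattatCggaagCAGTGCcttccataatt
Tfrc, 3′ untranslated region, start at base 1268: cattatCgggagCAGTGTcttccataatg
Tfrc, 3′ untranslated region, start at base 1333: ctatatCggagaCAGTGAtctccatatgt
Tfrc, 3′ untranslated region, start at base 1380: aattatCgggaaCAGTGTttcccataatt
The motif searched was a C, any 5 bases, the letters CAGTG and 1 more base other than G, with all 5 bases between the bulge and the loop paired across the stem, G with T allowed. Fth1, Ftl1 and Slc40a1 each held 1 match in the 5′ untranslated region, against 21 of 20873 genes with such a region (0.101%). The start given for each Tfrc hairpin is the position of the bulged C, where the motif begins, and the flanking bases printed before it lie upstream. Positions are counted from the first base of its longest 3′ untranslated region. Tfrc held 4 matches within the 2458 bases of its longest 3′ untranslated region, against at least 1 match in 98 of 20981 genes (0.467%). An element with an unpaired stem base or another loop would not match, so these need not be all the elements of Tfrc. Trf, Slc11a2, Aco1 and Ireb2 held no match in either region. Some Slc11a2 transcripts are known to carry an iron-responsive element with a less regular stem, which the pattern does not cover, and the FPKM values do not separate those transcripts from the rest.

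FPKM sums ran from 309358 to 350760 per library, with estimated depths between 39.57 and 96.95 M reads, and log2 values correlated at 0.988 to 0.997 within groups. Snrnp70, which checks the genotype labels, ran from 259 to 320.0 FPKM in N40K and from 95.96 to 138 FPKM in wild-type mice at 12 months, and from 377 to 401 FPKM in N40K and from 161 to 179 FPKM in wild-type mice at 3 months. Summed levels of 12 hippocampal neuron markers ran from 2886 to 3557 FPKM. The labels give no sex. Xist was at 13.5 to 17.3 FPKM in 3 libraries, 1 of the 3-month N40K group (replicate 3) and 2 of the 3-month wild-type group (replicates 2 and 3). It stayed at or below 0.112 FPKM in the other 9, so sex and age cannot be told apart in full. Sex was also uneven between the genotypes at 3 months. The genotype difference at 3 months, and its change between the ages, thus cannot be told apart from sex in full. The labels do not say how many animals stand behind a library, so every p-value measures the spread between these libraries.

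Tfrc mRNA was lower in the 12-month wild-type group than in any of the other 3 groups. It measured 26.5, 26.8 and 25.3 FPKM in N40K mice at 12 months, against 18.7, 17.5 and 18.5 FPKM in wild-type mice of the same age. At 3 months it measured 28.01, 27.5 and 27.7 FPKM in N40K mice, against 29.0, 30.4 and 26.3 FPKM in wild-type mice. All 3 wild-type values at 12 months lay below all 9 other values, and the 3-month genotypes overlapped. Means were 26.2 ± 0.79 FPKM in N40K and 18.2 ± 0.62 FPKM in wild-type mice at 12 months, and 27.7 ± 0.25 FPKM in N40K and 28.6 ± 2.09 FPKM in wild-type mice at 3 months (SD, n = 3 each).

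**Figure D1:**
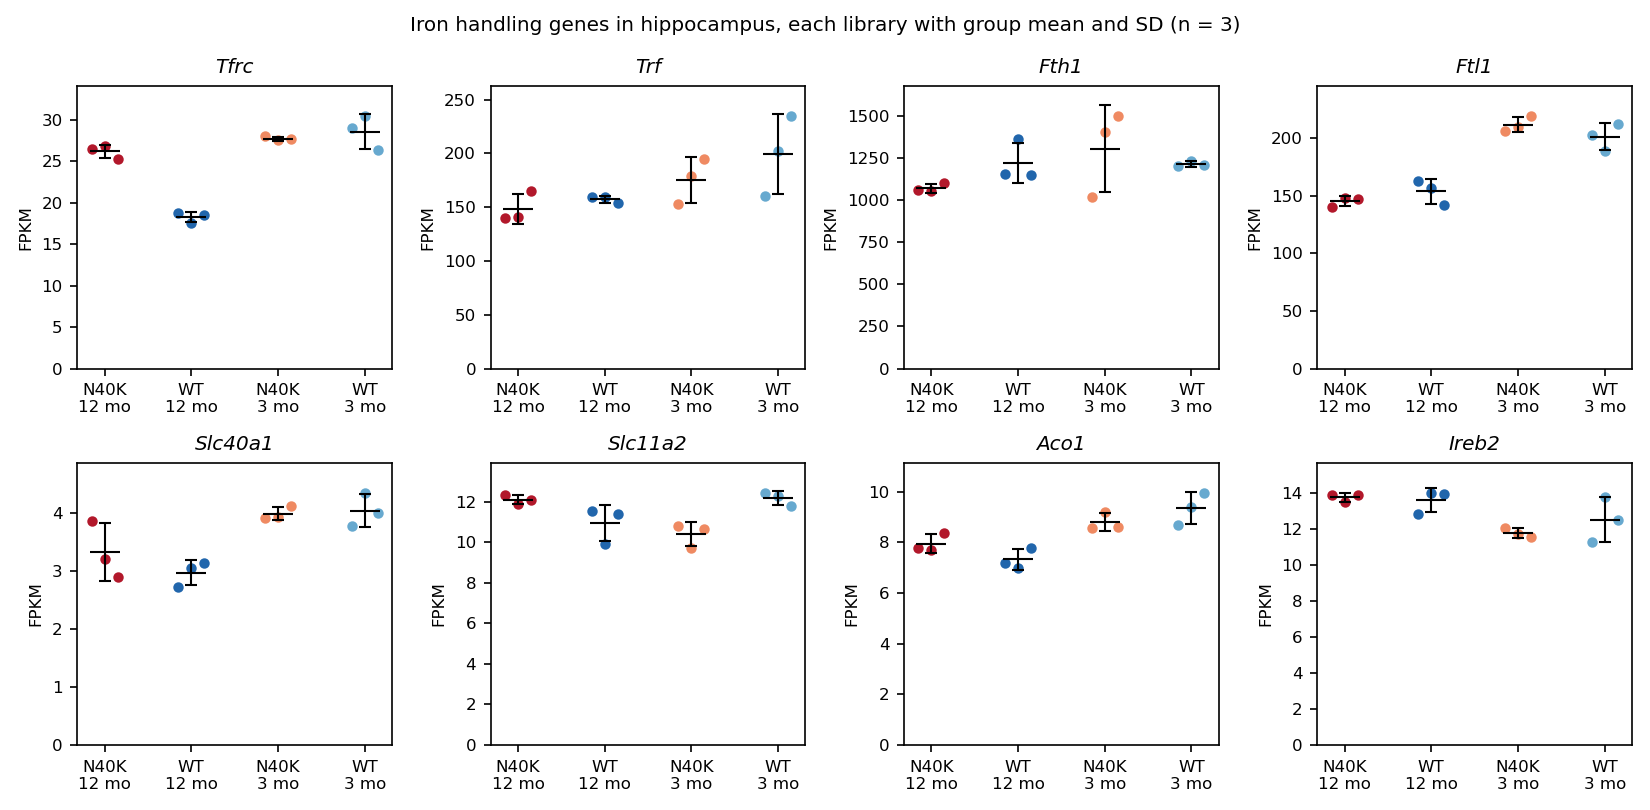
FPKM of each of the 8 genes in every library on linear axes that start at 0. Points are libraries, wide lines are group means and whiskers are 1 SD (n = 3), with N40K left of wild type at each age. The 12-month wild-type Tfrc points sit at 17.5 to 18.7 FPKM, below the other 9.

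The ratio of N40K to wild-type Tfrc means was 1.44 at 12 months and 0.970 at 3 months. On the log2(FPKM + 1) scale, which understates the change of low genes, the N40K minus wild-type difference was 0.50 ± 0.05 (SE) at 12 months and -0.04 ± 0.05 at 3 months. These differ by 0.54 ± 0.07, the contrast for which the gene was chosen, so no p is given. Over ages, the ratio of the 12-month to the 3-month mean was 0.945 in N40K mice and 0.638 in wild-type mice. The 12-month N40K values, 25.3 to 26.8 FPKM, lay below the 3-month N40K values, 27.5 to 28.01 FPKM. That order depended on scaling, since the log2 difference of -0.08 in N40K mice became 0.02 with median-ratio scaling and 0.04 with quantile normalization. In wild-type mice the log2 difference over age was -0.62, and -0.54 with median-ratio scaling.

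Tfrc is known to be abundant in brain endothelial cells as well as in neurons, and in red cell precursors. The summed level of 12 endothelial markers ran from 134 to 137 FPKM in N40K and from 112.5 to 118 FPKM in wild-type mice at 12 months, and from 164 to 173 FPKM in N40K and from 149 to 174 FPKM in wild-type mice at 3 months. The N40K to wild-type ratio of this sum was 1.17 at 12 months and 1.03 at 3 months. At 12 months 4 of the 12 markers were called higher in N40K mice and 0 lower (limma, adjusted p under 0.05), against 11.2% higher and 7.71% lower of all genes tested. At 3 months 0 were called, against 7.95% higher and 3.49% lower, and for the difference between the ages 0 were called. The 4 were Slco1a4, Abcb1a, Tie1 and Flt1, with log2 differences of 0.63, 0.35, 0.33 and 0.32. None of the 12 was at 0 FPKM. The endothelial sum was thus higher in N40K at 12 months, as Tfrc was, by a smaller ratio. Its ratio of 12-month to 3-month means was 0.709 in wild-type and 0.804 in N40K mice, beside 0.638 and 0.945 for Tfrc. With age, 10 of the 12 markers were called lower and 0 higher in wild-type mice, against 29.0% and 12.6% of all genes. In N40K mice 4 were called lower and 1 higher, against 36.5% and 15.1%. The part of endothelial cells in the Tfrc values was not tested. In bulk tissue, fewer cells of a type and less RNA per cell cannot be told apart.

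Divided by the endothelial sum of its own library, Tfrc was at 0.194 ± 0.0080 in N40K mice at 12 months, against 0.157 ± 0.0020 in wild-type mice (SD, n = 3 each), with no overlap between libraries. At 3 months this ratio was 0.165 ± 0.0053 in N40K and 0.176 ± 0.027 in wild-type mice, with overlap. Between the ages it overlapped in wild-type mice, at 0.156 to 0.160 at 12 months and 0.151 to 0.205 at 3 months. In N40K mice it was higher at 12 months, at 0.185 to 0.200 against 0.159 to 0.169. At 12 months the sum of 4 globin genes was lower in N40K mice without overlap. It ran from 173 to 220.2 FPKM in N40K and from 234 to 278 FPKM in wild-type mice. Of 7 tested blood markers 0 were called at 12 months, against 11.2% higher and 7.71% lower of all genes. At 3 months the globin sum ran from 244 to 485 FPKM in N40K and from 202 to 389 FPKM in wild-type mice. Summed microglial markers overlapped between genotypes at both ages, as did summed astrocyte markers. Summed neuron markers were at 2886 to 3005 FPKM in N40K and 3162 to 3417 FPKM in wild-type mice at 12 months. Of these 12 neuron markers 3 were called lower and 1 higher at 12 months, against 7.71% and 11.2% of all genes tested.

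**Figure D2:**
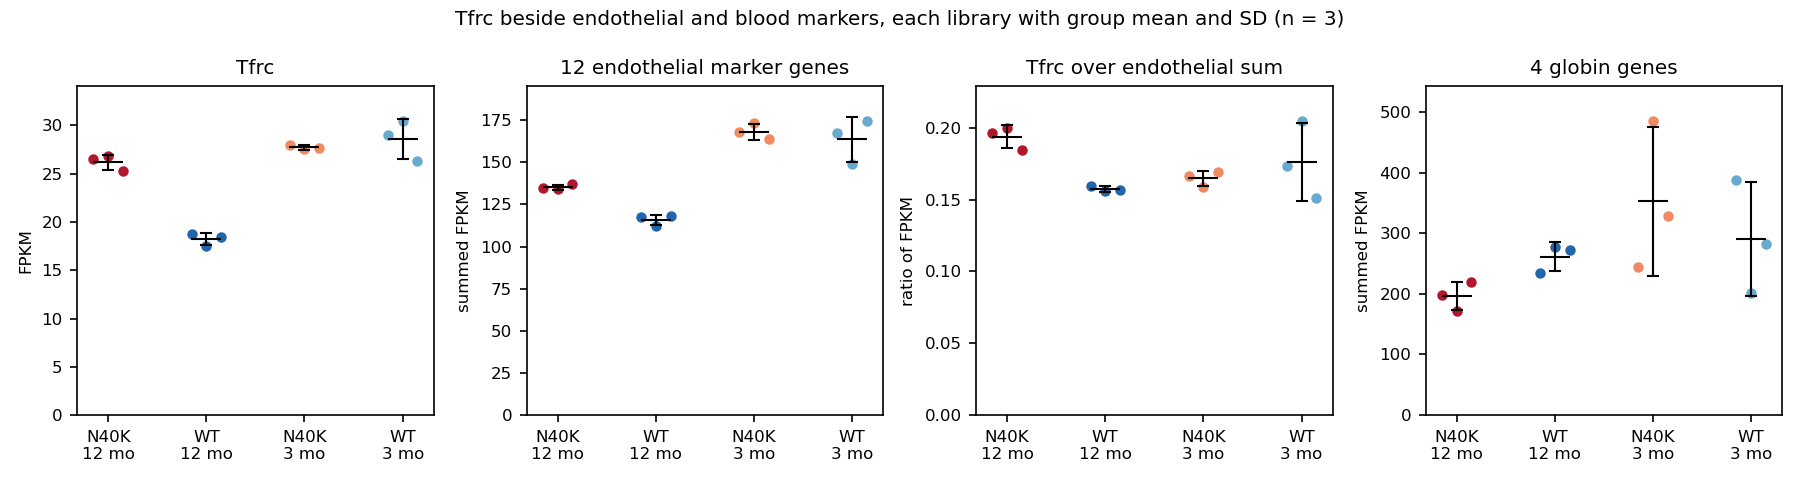
Tfrc in FPKM, the summed FPKM of 12 endothelial markers, Tfrc divided by that sum, and the summed FPKM of 4 globin genes, from left to right on axes that start at 0. Points are libraries, wide lines are group means and whiskers are 1 SD (n = 3). The 12-month groups do not overlap in any of the panels, with N40K higher in all but the globin sum.

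The 6 genes whose log2 values followed Tfrc most closely over the 12 libraries were Lars (Pearson r = 0.961), Hps3 (0.945), Nxpe4 (0.942), Cdk11b (0.942), Rnaseh1 (0.939) and Snora31 (0.932). The 3 that ran most against it were Hspa5 (-0.958), Calr (-0.954) and Zfp180 (-0.952). These values describe 12 libraries that share group, age and sequencing, and the 12-month wild-type group stands apart in each of the 9 genes. The 9 genes were chosen by these correlations, so that pattern follows from the choice and is no separate result. Lars, a leucyl-tRNA synthetase gene, averaged 15.4 ± 0.45 FPKM in N40K and 13.1 ± 0.56 FPKM in wild-type mice at 12 months. Hspa5, which encodes the endoplasmic reticulum chaperone BiP, averaged 78.0 ± 8.56 FPKM in N40K and 141 ± 18.2 FPKM in wild-type mice at 12 months, and 71.2 ± 4.41 FPKM in N40K and 75.2 ± 12.9 FPKM in wild-type mice at 3 months (SD, n = 3 each). Hps3 shares exonic sequence with Cp on the opposite strand, and whether counting used strand is unknown. The Hspa5 mean was highest in the group in which Tfrc was lowest, as follows from choosing Hspa5 by its correlation to Tfrc.

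The other 7 genes were tested with limma in the fit over all 13945 genes that passed the filter. At 12 months 0 of the 7 were called between genotypes, against 18.9% of all genes tested, and 1 of them, Slc11a2, had an unadjusted p of 0.0406. At 3 months 1 of the 7 was called, Slc11a2, against 11.4% of all genes. For the difference between the ages 0 of the 7 were called, against 0.0645% of all genes (0.0359% higher and 0.0287% lower). At an unadjusted p under 0.05, 2 of the 7, Slc11a2 and Aco1, passed for that difference.

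**Figure D3:**
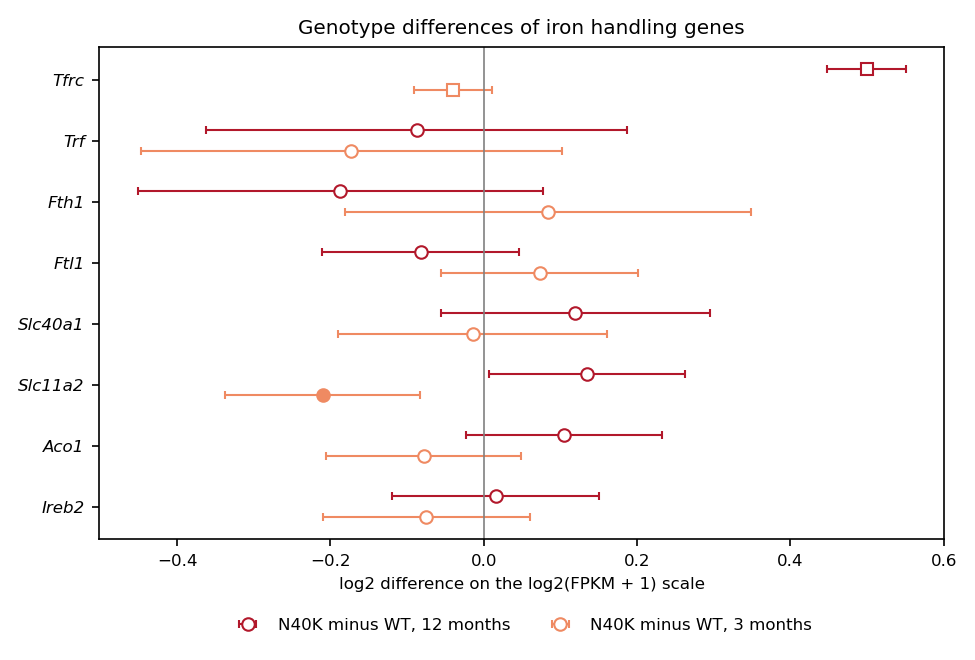
N40K minus wild-type differences on the log2(FPKM + 1) scale at 12 months and at 3 months. Circles carry 95% intervals from limma and are filled where the adjusted p was under 0.05, and Tfrc is an open square with ±1 SE because it carries no test. Slc11a2 at 3 months, at -0.21, is the filled circle.

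Trf, the gene of the iron carrier, is made in the brain mainly by oligodendrocytes and the choroid plexus. It measured 140.0, 141 and 165 FPKM in N40K mice at 12 months, against 159, 159 and 154 FPKM in wild-type mice. In the 3-month groups it measured 153, 179 and 195 FPKM in N40K mice, against 160.5, 203 and 235 FPKM in wild-type mice. The genotypes overlapped at both ages. The log2 difference was -0.09 (95% interval -0.36 to 0.19) at 12 months and -0.17 (-0.45 to 0.10) at 3 months, with adjusted p-values of 0.661 and 0.435 from limma.

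Within the 3-month groups the highest Trf values were those of libraries with Xist, replicate 3 of the N40K group and replicates 2 and 3 of the wild-type group. The summed level of 12 oligodendrocyte markers moved with Trf, at 1695, 1805 and 2217 FPKM in N40K mice and 1907, 2154 and 2325 FPKM in wild-type mice at 3 months. At 12 months that sum ran from 1527 to 1619.5 FPKM in N40K and from 1696 to 1844 FPKM in wild-type mice. Of the 12 markers 0 were called between genotypes at either age, with median log2 differences of -0.16 at both ages and all 12 differences below 0. Over all genes 18.9% were called at 12 months and 11.4% at 3 months. Choroid plexus tissue also varied between libraries: Ttr, its most abundant transcript, was at 2977 FPKM in replicate 3 of the 12-month N40K group, the one with 165 FPKM of Trf, against 25.2 and 223 FPKM in replicates 1 and 2. The 3-month wild-type library with 235 FPKM of Trf also had the highest Ttr, 5813 FPKM. In the other groups Ttr did not follow Trf: the 3-month N40K library with 195 FPKM of Trf had 74.3 FPKM of Ttr, the lowest of its group, and the 12-month wild-type library with the least Trf had the most Ttr, 2152 FPKM. The part of either tissue in the Trf values was not tested.

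Slc11a2, the endosomal iron transporter gene, was the one member whose genotypes differed in opposite directions at 12 and 3 months with no overlap at either age. It measured 12.3, 11.9 and 12.1 FPKM in N40K mice at 12 months, against 11.6, 9.93 and 11.4 FPKM in wild-type mice. The 3-month values were 10.8, 9.73 and 10.7 FPKM in N40K mice, against 12.5, 12.3 and 11.8 FPKM in wild-type mice. Its exons overlap those of 1 gene on the opposite strand, which was at or below 0.0411 FPKM. All N40K values of Slc11a2 were above the wild-type values at 12 months and below them at 3 months. Such lack of overlap, in either direction, was seen in 38.8% of genes tested at 12 months and in 31.9% at 3 months. The share of genes that lacked overlap at both ages in opposite directions was not counted.

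The 3-month Slc11a2 log2 difference was -0.21 ± 0.06 (SE, limma adjusted p = 0.0396). This call was lost without the filter on low values (adjusted p = 0.0528), with Xist as a covariate (0.0752) and when any of 8 libraries was left out, namely replicates 2 and 3 of the 3-month N40K group and every replicate of the 3-month wild-type and 12-month N40K groups. The log2 difference then ranged from -0.24 to -0.17 over all 12 libraries left out in turn, and the adjusted p from 0.0098 to 0.146. At 12 months the log2 difference was 0.13 (95% interval 0.0068 to 0.26), with an adjusted p of 0.127. The difference between the ages was 0.34 ± 0.08, with an adjusted p of 0.142, and was not called.

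Fth1, which encodes the ferroxidase subunit of ferritin, had the fifth highest mean level of all genes tested. It measured 1057, 1052 and 1099 FPKM in N40K mice at 12 months, against 1156, 1358 and 1148 FPKM in wild-type mice. At 3 months the levels were 1015, 1403 and 1496 FPKM in N40K mice, against 1201, 1232 and 1209.7 FPKM in wild-type mice. At 12 months the N40K values all lay below the wild-type values, by a log2 difference of -0.19 ± 0.12 (SE) with a limma adjusted p of 0.300. At 3 months the N40K libraries lay on both sides of the wild-type range, with a log2 difference of 0.08 ± 0.12 and an adjusted p of 0.725. The spread within the 3-month N40K group, an SD of 255 FPKM, was larger than any difference between group means.

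Ftl1, which encodes the light subunit, measured 139.9, 148 and 147 FPKM in N40K mice at 12 months, against 163, 157 and 142 FPKM in wild-type mice. The 3-month levels were 206, 209.6 and 219 FPKM in N40K mice, against 203, 189 and 212 FPKM in wild-type mice. The genotypes overlapped at both ages, and the log2 differences were -0.08 (limma adjusted p = 0.350) and 0.07 (adjusted p = 0.491) at 12 and 3 months. The ratio of Fth1 to Ftl1 FPKM was 7.38 ± 0.23 in N40K and 7.96 ± 0.79 in wild-type mice at 12 months, and 6.15 ± 1.07 in N40K and 6.05 ± 0.43 in wild-type mice at 3 months (SD, n = 3 each). Between genotypes this ratio differed by less than 1 SD of the more variable group at each age. GENCODE M21 holds 9 other genes with a transcript at least 90% identical to Ftl1 over at least 200 bases, and 1 each for Fth1 and Trf. The Trf match, Gm20425, overlaps Trf on the same strand. None of these genes has an entry of its own in the table, so how reads shared with them were counted is uncertain.

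Slc40a1, the exporter gene, was the lowest of the 8 in FPKM. It measured 3.87, 3.21 and 2.90 FPKM in N40K mice at 12 months, against 2.72, 3.05 and 3.14 FPKM in wild-type mice. At 3 months it measured 3.91, 3.94 and 4.12 FPKM in N40K mice, against 3.78, 4.35 and 3.999 FPKM in wild-type mice. The genotypes overlapped at both ages, with log2 differences of 0.12 (limma adjusted p = 0.319) at 12 months and -0.01 (adjusted p = 0.938) at 3 months.

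Aco1, whose product is a cytosolic aconitase or iron regulatory protein 1 depending on its iron-sulphur cluster, measured 7.79, 7.68 and 8.38 FPKM in N40K mice at 12 months, against 7.20, 6.99 and 7.78 FPKM in wild-type mice. The younger mice had 8.57, 9.20 and 8.62 FPKM in N40K mice, against 8.70, 9.40 and 9.96 FPKM in wild-type mice. The mean was higher in N40K at 12 months and lower at 3 months, with overlap at both. Its log2 differences were 0.10 (limma adjusted p = 0.230) and -0.08 (adjusted p = 0.450) at 12 and 3 months, and the difference between the ages was 0.18 (95% interval 0.0024 to 0.36, adjusted p = 0.344).

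Ireb2, whose product is iron regulatory protein 2, measured 13.9, 13.5 and 13.9 FPKM in N40K mice at 12 months, against 12.9, 14.04 and 13.97 FPKM in wild-type mice. In 3-month mice it measured 12.1, 11.8 and 11.6 FPKM in N40K mice, against 11.3, 13.8 and 12.5 FPKM in wild-type mice. The genotypes overlapped at both ages. The log2 difference was 0.02 (95% interval -0.12 to 0.15, limma adjusted p = 0.890) at 12 months and -0.07 (-0.21 to 0.06, adjusted p = 0.505) at 3 months.

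Age differences were read within each genotype as 12 minus 3 months. In N40K mice 4 of the 7 tested members were called, 2 higher and 2 lower, against 51.6% of all genes (15.1% higher and 36.5% lower). In wild-type mice 3 of the 7 were called, all lower, against 41.6% of all genes (12.6% higher and 29.0% lower). Both counts are near those backgrounds. All 12-month libraries lacked Xist while 3 of the 3-month libraries had it, and FPKM sums were lower at 12 months. Age, sex and these totals thus cannot be told apart in full. The library numbers in the sample titles also fall in a separate range for each age, and the labels do not say why. Age cannot be told apart from anything that goes with those ranges.

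**Figure D4:**
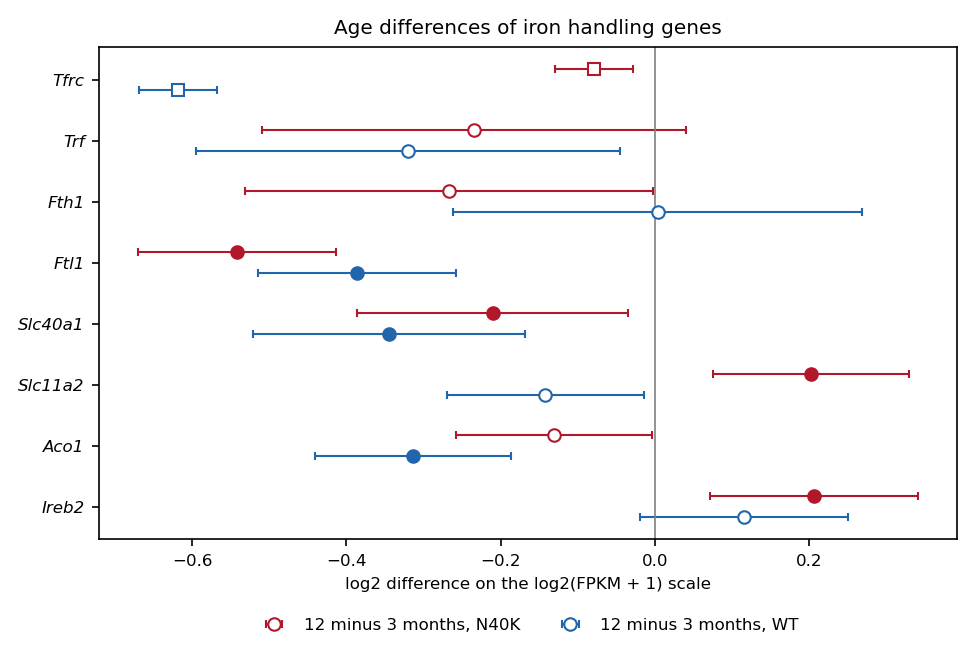
Differences between 12 and 3 months on the log2(FPKM + 1) scale, N40K above wild type for each gene. Circles carry 95% intervals from limma and are filled where the adjusted p was under 0.05, and Tfrc is an open square with ±1 SE. Ftl1 and Slc40a1 are filled in both genotypes.

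Ftl1 fell with age in both genotypes, to a ratio of 12-month to 3-month means of 0.686 in N40K and 0.764 in wild-type mice. Its log2 differences were -0.54 ± 0.06 (SE, limma adjusted p = 3.45e-05) in N40K and -0.39 ± 0.06 (adjusted p = 0.000509) in wild-type mice. The ages did not overlap in either genotype, a pattern seen in 62.8% of genes in N40K and 50.3% in wild-type mice. Fth1 was not called in either genotype, with log2 differences of -0.27 (adjusted p = 0.0841) in N40K and 0.00 (adjusted p = 0.984) in wild-type mice. Without replicate 1 of the 3-month N40K group, the N40K difference of Fth1 was -0.44 with an adjusted p of 0.00115.

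Slc40a1 fell in wild-type mice by 0.34 ± 0.08 on the log2 scale, with a limma adjusted p of 0.00566. In N40K mice its difference was -0.21 ± 0.08 (adjusted p = 0.0456), a call lost without the filter on low values (adjusted p = 0.0777), with Xist as a covariate (0.108), with quantile normalization (0.115), with median-ratio scaling (-0.13, 0.236), and when any of 7 libraries was left out (adjusted p 0.0530 to 0.175): each replicate of the 3-month N40K group, replicates 2 and 3 of the 12-month N40K group, and replicate 3 of each wild-type group. Aco1 fell in wild-type mice by 0.31 ± 0.06 (adjusted p = 0.00163), and its difference in N40K mice was -0.13 ± 0.06 (adjusted p = 0.0796). Whether these age differences are unlike in the 2 genotypes is the contrast reported above as the difference between the ages, which was not called for Slc40a1 or Aco1.

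Ireb2 rose with age in N40K mice by 0.21 ± 0.06 on the log2 scale (limma adjusted p = 0.0155), and its difference in wild-type mice was 0.12 ± 0.06 (adjusted p = 0.153). The wild-type value passed the threshold with median-ratio scaling (adjusted p = 0.0269), with quantile normalization (0.0341) and without replicate 2 of the 3-month group (0.0269). Slc11a2 rose in N40K mice by 0.20 ± 0.06 (adjusted p = 0.0128), a call lost without replicate 2 of the 3-month N40K group (adjusted p = 0.0567), and its wild-type difference was -0.14 ± 0.06 (adjusted p = 0.0698). Trf was not called, at -0.23 (adjusted p = 0.137) in N40K and -0.32 (adjusted p = 0.0597) in wild-type mice. The wild-type Trf difference reached -0.47 with an adjusted p of 0.0082 without replicate 1 of the 3-month wild-type group.

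Other iron genes were taken from 7 lists that cover uptake, storage, export, sensing, mitochondrial iron with iron-sulphur cluster assembly, haem, and transcripts with a described iron-responsive element. Of 98 genes with an entry 82 were tested, 74 without the 8 members, and some genes stand in 2 lists. At 12 months 10 of the 74 were called higher in N40K mice (13.5%) and 6 lower (8.11%), against 11.2% and 7.71% of all genes. At 3 months 10 were called higher (13.5%) and 3 lower (4.05%), against 7.95% and 3.49% of all genes. For the difference between the ages 0 of the 74 were called, or 4 without replicate 1 of the 3-month N40K group. With 1 library left out, the 16 calls at 12 months ranged from 4 to 16, with 4 to 7 without any N40K library or replicate 2 of the wild-type group of that age. The 13 calls at 3 months ranged from 4 to 13, with 4 to 8 without replicate 2 or 3 of the N40K group or any wild-type library of that age. With median-ratio scaling the split over all genes shifted, at 3 months to 721 higher and 646 lower calls, against 1109 and 487 as deposited.

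**Figure D5:**
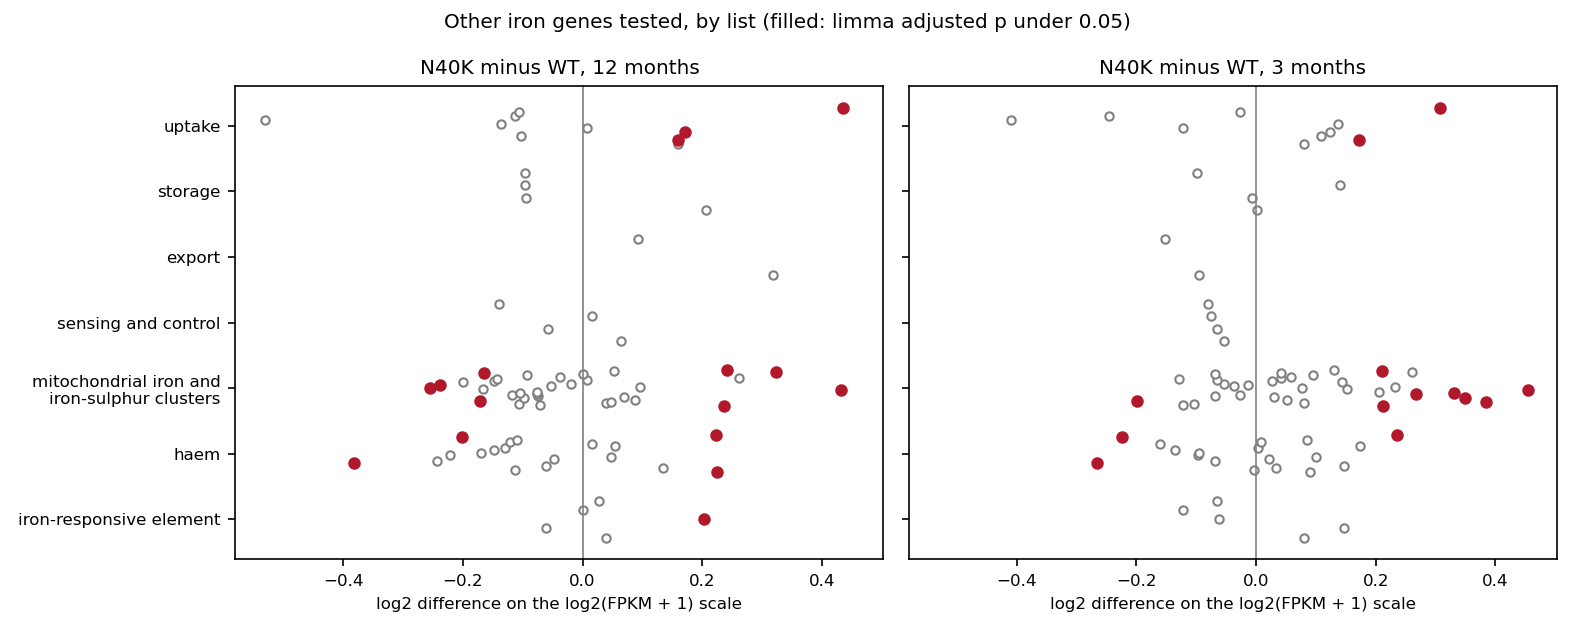
N40K minus wild-type log2 differences of the genes tested in each iron list at 12 months and at 3 months, without the 8 members. Each point is a gene, filled where limma gave an adjusted p under 0.05, and the vertical line marks no difference. List medians lie between -0.12 and 0.21.

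In the uptake list 3 of 10 genes were called higher at 12 months and 2 of 10 at 3 months, against 11.2% and 7.95% of all genes. At either age 0 were called lower, against 7.71% and 3.49% of all genes, with list medians of -0.05 and 0.09. With median-ratio scaling, and with quantile normalization, 2 of the 10 were called higher at 12 months and 0 at 3 months. Tfr2, the gene of the second transferrin receptor, averaged 4.17 ± 0.34 FPKM in N40K and 2.83 ± 0.36 FPKM in wild-type mice at 12 months, a log2 difference of 0.44 ± 0.09 (SE, limma adjusted p = 0.00637). At 3 months it averaged 5.26 ± 0.24 FPKM in N40K and 4.07 ± 0.49 FPKM in wild-type mice, with an adjusted p of 0.0423. That 3-month call was lost in 7 of 8 other settings, with adjusted p-values up to 0.0998, and in 8 of the 12 fits that left out a library, up to 0.136. The Tfr2 mean was higher in N40K at 12 months, as that of Tfrc was, and also at 3 months, where that of Tfrc was not. Its difference between the ages was 0.13 (limma adjusted p = 0.659) and was not called. Mcoln1, a lysosomal cation channel gene, and Slc39a14, a metal transporter gene, had log2 differences of 0.16 and 0.17 at 12 months, calls that were lost when any of 9 and 8 libraries was left out.

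Among 33 genes of mitochondrial iron and iron-sulphur cluster assembly, 4 were called higher and 4 lower at 12 months, and 7 higher and 1 lower at 3 months, with medians of -0.07 and 0.06. Over all genes 11.2% were called higher and 7.71% lower at 12 months, and 7.95% higher and 3.49% lower at 3 months. With median-ratio scaling 4 of the 33 were called higher and 1 lower at 3 months. Fdxr, the gene of the ferredoxin reductase that feeds electrons to cluster assembly, averaged 9.23 ± 0.61 FPKM in N40K and 6.60 ± 0.74 FPKM in wild-type mice at 12 months, and 14.5 ± 0.94 FPKM in N40K and 10.3 ± 0.82 FPKM in wild-type mice at 3 months (SD, n = 3 each). Its log2 differences were 0.43 (limma adjusted p = 0.00487) and 0.45 (adjusted p = 0.00518) at 12 and 3 months. Fam96b, a gene of the cytosolic cluster assembly machinery, was called higher at 3 months (log2 difference 0.27, adjusted p = 0.00982) and was at -0.08 at 12 months (adjusted p = 0.354). Slc25a28, a mitochondrial iron importer gene, and Bola3, a cluster transfer gene, were also called higher at 3 months, by 0.21 and 0.38. At 12 months Abcb10 was called higher by 0.24, while Isca1 and Ciao1 were called lower, at -0.24 and -0.17.

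Among 18 haem genes 2 were called higher and 2 lower at 12 months, and 1 higher and 2 lower at 3 months, with medians of -0.11 and 0.01. The shares over all genes were 11.2% higher and 7.71% lower at 12 months, and 7.95% higher and 3.49% lower at 3 months. Blvra, the gene of a biliverdin reductase that acts after haem breakdown, averaged 8.22 ± 0.28 FPKM in N40K and 11.03 ± 0.66 FPKM in wild-type mice at 12 months, and 10.6 ± 0.27 FPKM in N40K and 12.9 ± 0.09 FPKM in wild-type mice at 3 months (SD, n = 3 each). Its log2 differences were -0.38 (limma adjusted p = 0.000443) and -0.27 (adjusted p = 0.00470) at 12 and 3 months. Uros and Urod, which encode consecutive enzymes of haem synthesis, were called in opposite directions: Uros at 0.22 and 0.24, Urod at -0.20 and -0.22 at 12 and 3 months. Abcg2, an exporter gene that is also an endothelial transcript in brain, was called higher at 12 months by 0.23.

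No gene was called between genotypes in the storage, export or sensing lists at either age, of 6, 3 and 6 tested with the members and 4, 2 and 4 without. Over all genes 18.9% were called at 12 months and 11.4% at 3 months. Of 5 further transcripts with a described iron-responsive element 1 was called, Cdc14a at 12 months, at 1.28 ± 0.05 FPKM in N40K and 0.979 ± 0.026 FPKM in wild-type mice (SD, n = 3 each). The calls of Fdxr and Blvra at both ages, of Tfr2 at 12 months and of Fam96b at 3 months held under every alternative run, each left-out library included, while each other call named from these lists was lost under at least 1.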

How the data were processed

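Poly-A RNA was read in 100 bp pairs on a HiSeq, per the labels' protocols. The tissue label is hippocampus, while the extraction protocol speaks of tumor samples. The authors deposited FPKM values in 1 table; CASAVA, STAR, BWA and mm9 are named, without roles, per the submitters' processing notes. No source used here gives the counting tool, the annotation or the strand setting. All 12 columns matched the labels and 0 were left unmapped. The highest share of identical values between 2 libraries was 0.0159%. Depth was estimated from steps between low FPKM values of 955 genes; since only 55.6% to 72.2% of those values fell within 0.02 of a whole read, count tests were left out.

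Tests used log2(FPKM + 1) after the filter given above, with 1 limma model (3.58.1, R 4.3.3) of 4 group means, eBayes with a trend, two-sided, and Benjamini-Hochberg adjustment over all 13945 genes at 0.05. Named genes were the members, up to 4 called genes per iron list and genotype contrast by smallest p, and the 6 most and 3 least like Tfrc. The members, lists and tests were chosen with earlier results of these data known. The procedure was tested on simulated data. Alternatives changed the pseudocount (0.1, 0.5), the filter (none, mean of 5 FPKM), the scaling (median ratio, quantile), or the model (Xist covariate, replicate block, each age alone), or left out each library. Sequences were read from GENCODE M21 on GRCm38, another build than the files', so no coordinates are given. Python 3.11.15, pandas 2.3.3, numpy 2.4.6 and matplotlib 3.10.9 were used. Some results are not reported here.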

Additional observations from a re-analysis of the deposited data

Results flagged for a closer look

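Tfrc and Slc11a2 were flagged for their differences between genotypes at 12 and 3 months. For Slc11a2 the change between the ages was not called. For Tfrc the N40K minus wild-type difference was 0.54 larger at 12 months than at 3 months on the log2 scale; it is the gene chosen for this pattern and carries no test, and its 3-month libraries overlapped. For Slc11a2 the difference was 0.34 larger at 12 months, with N40K libraries all above wild type at 12 months and all below at 3 months, and a limma adjusted p of 0.142, which missed the threshold of 0.05.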

How the results depend on the processing

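Of 695 alternative values for the 7 tested members, 654 kept their direction and side of the threshold, 23 lost a call, 7 gained one and 11 changed sign. The count of members called between genotypes at 3 months, 1, was 0 without the filter, with Xist as a covariate and with the replicate block, and 0 to 1 over left-out libraries; the count over age in N40K mice, 4, ranged from 2 to 4, with 2 without replicate 2 of the 3-month N40K group. With the replicate block, Slc11a2 at 3 months was -0.21 (adjusted p = 0.0912), and the calls over all genes fell to 637 at 3 months and 1399 at 12 months, against 1596 and 2632. Same-numbered libraries showed no common deviation (correlations of 0.0569, -0.456 and -0.349 at 3 months and 0.0727, 0.00108 and 0.197 at 12 months). So few pairs cannot show whether same-numbered libraries were paired. Sign changes, all in values that were not called, were as follows, and the cause was not tested. Genotype at 3 months: Fth1 ranged from -0.025 to 0.25 over left-out libraries and Slc40a1 from -0.052 to 0.029, and Slc40a1 was 0.011 with Xist as a covariate. Genotype at 12 months: with quantile normalization Trf was 0.0068 and Ftl1 0.00040, and Ireb2 ranged from -0.022 to 0.036 over left-out libraries. Difference between the ages: Trf was -0.015 with Xist as a covariate and ranged from -0.041 to 0.23. Age in wild type: Fth1 ranged from -0.076 to 0.046. Age in N40K: Tfrc was 0.018 with median-ratio scaling and 0.043 with quantile normalization. Tfrc between genotypes ranged over left-out libraries from 0.47 to 0.52 at 12 months and from -0.10 to 0.0052 at 3 months. For the difference between the ages, 9 genes were called over all genes, 0 with Xist as a covariate or the replicate block, and 0 to 162 over left-out libraries. The other iron genes called, 16 at 12 months and 13 at 3 months, were 4 and 5 with the replicate block, 6 at 12 months with each age alone, and 8 at 3 months with median-ratio scaling. FPKM without counts limits the precision of low genes such as Slc40a1.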

Other observations

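Over age, 12 minus 3 months, the haem genes called were all lower. Of 18 tested, 13 were called lower and 0 higher in N40K mice (limma, median log2 difference -0.30), and 10 lower and 0 higher in wild-type mice (median -0.18), against 36.5% and 29.0% of all genes called lower and medians of -0.10 and -0.08 over all genes. With median-ratio scaling, which moves the medians of all genes towards 0 and splits all calls into 2995 higher and 3020 lower in N40K and 2594 higher and 2420 lower in wild-type mice, the list had 10 and 5 genes lower and 0 higher. As deposited, the splits over all genes were 2111 higher and 5089 lower in N40K and 1756 higher and 4047 lower in wild-type mice. The lean was not particular to haem genes. Of 33 genes of mitochondrial iron and iron-sulphur cluster assembly, 20 were called lower and 1 higher in N40K mice. In wild-type mice 15 were called lower and 1 higher. Of the 74 iron genes without the members, haem genes included, 55.4% were called lower in N40K and 45.9% in wild-type mice. Age is confounded in part with the libraries with Xist, and in full with the library number ranges, as in the comparisons above.

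Herc2 and Fbxl5, chosen after their values were seen, rose with age in both genotypes. Herc2, which encodes a ubiquitin ligase that acts on the ferritinophagy receptor NCOA4, had log2 differences of 0.80 (limma adjusted p = 1.56e-05) in N40K and 0.59 (adjusted p = 0.000175) in wild-type mice. Fbxl5, the gene of the iron-sensing ligase subunit that marks iron regulatory proteins for breakdown, was at 0.40 (adjusted p = 0.000109) in N40K and 0.30 (adjusted p = 0.00090) in wild-type mice. Over all genes 15.1% were called higher in N40K and 12.6% in wild-type mice. Their lists did not rise as a whole. Of 4 storage genes tested without the members, 1 was called higher and 2 lower in N40K mice, and 1 higher and 1 lower in wild-type mice. Of 4 such sensing genes, 1 was called higher and 1 lower in each genotype.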
